A study of Mus musculus with 8 samples.

Results

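The genes described here encode the machinery that copies DNA in S phase, together with a few of its regulators: the MCM helicase, the origin recognition complex (ORC), the GINS complex, replication factor C (RFC), the replicative polymerases, replication protein A (RPA) and the factors that load, fire and follow them. The list holds 41 gene symbols, and its members were found by the RefSeq accession of each probe. All 41 were on the array, carried by 47 probes, and all 41 were among the 14631 named genes and 23121 features that were tested. The samples were total RNA from whole embryos of CD-1 mice on gestational day 9, read on 1-colour Agilent arrays, 4 arrays for each of 2 groups. In the first group the dams had been injected intraperitoneally with 400 mg/kg hydroxyurea, in the other with saline, and embryos of both groups were collected 3 h later. The labels speak of independent experiments for each sample but do not tie an array to a litter or dam, so the spread between arrays, on which each p-value rests, may be partly technical.

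Replication is prepared in G1, when ORC marks origins of replication and, with Cdc6 and Cdt1, loads the MCM helicase onto DNA. In S phase the kinase Cdc7 with its activator Dbf4 helps to turn the loaded helicase into an active one that also contains Cdc45 and GINS; polymerases α, δ and ε then copy the strands, on the sliding clamp PCNA that RFC loads, while RPA covers the single-stranded DNA. Hydroxyurea inhibits ribonucleotide reductase, lowers the supply of deoxynucleotides and slows or stalls forks. Many genes of this machinery are targets of E2F transcription factors, whose activity peaks around the start of S phase, whereas genes of mitosis are expressed later in the cycle, many of them through CHR elements.

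The promoters are shown first, because E2F control is what these genes are best known to share. Since many of them are known E2F targets, a share of matches above that of all genes is not an independent result. An 8-base E2F motif with the letters TTTCCCGC, TTTCGCGC, TTTGCCGC or TTTGGCGC was searched on both strands of RefSeq promoter windows (GRCm38.p6, 250 bases before to 50 bases after each annotated start). Windows were held for 34 of the 41 genes, and 14 of the 34 (41.2%) had at least 1 match, against 704 of 27025 genes (2.6%) over the whole table. For a sense of what the matches look like, the stretches before the start follow for 6 genes, 5′ to 3′ on the gene's strand, with motif matches in capitals. Mcm6 has an overlapping pair of matches and another one nearer the start; Cdc6, Rfc3 and Gins3 have matches and differ in what was measured, with log2 differences between hydroxyurea and saline from -0.19 (Gins3) to 0.72 (Rfc3); Orc6 and Cdc7, the genes that passed the test, have none in their windows.
Mcm6, chr1:128359706-128359955, minus strand: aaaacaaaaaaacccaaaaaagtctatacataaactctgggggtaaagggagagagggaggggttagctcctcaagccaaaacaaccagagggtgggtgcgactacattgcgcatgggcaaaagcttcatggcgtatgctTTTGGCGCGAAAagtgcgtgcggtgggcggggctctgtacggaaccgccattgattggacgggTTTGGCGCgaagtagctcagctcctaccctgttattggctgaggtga
Cdc6, chr11:98907901-98908150, plus strand: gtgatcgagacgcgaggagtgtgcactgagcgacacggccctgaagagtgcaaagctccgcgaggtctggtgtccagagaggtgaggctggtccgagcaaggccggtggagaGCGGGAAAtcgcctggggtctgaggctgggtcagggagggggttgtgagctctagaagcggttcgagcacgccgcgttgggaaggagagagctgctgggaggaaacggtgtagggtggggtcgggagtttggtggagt
Rfc3, chr5:151651201-151651458, minus strand, ending 8 bases after the start: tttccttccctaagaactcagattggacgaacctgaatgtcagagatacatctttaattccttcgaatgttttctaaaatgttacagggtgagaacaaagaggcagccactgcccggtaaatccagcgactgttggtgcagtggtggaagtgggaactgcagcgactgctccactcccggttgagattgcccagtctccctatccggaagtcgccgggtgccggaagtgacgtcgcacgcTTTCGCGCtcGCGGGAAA
Gins3, chr8:95633309-95633558, plus strand: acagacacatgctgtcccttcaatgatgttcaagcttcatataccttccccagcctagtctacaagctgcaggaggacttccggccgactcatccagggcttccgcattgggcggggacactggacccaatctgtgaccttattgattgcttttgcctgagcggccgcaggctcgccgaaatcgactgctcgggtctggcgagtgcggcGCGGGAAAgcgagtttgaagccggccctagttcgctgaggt
Orc6, chr8:85299382-85299631, plus strand: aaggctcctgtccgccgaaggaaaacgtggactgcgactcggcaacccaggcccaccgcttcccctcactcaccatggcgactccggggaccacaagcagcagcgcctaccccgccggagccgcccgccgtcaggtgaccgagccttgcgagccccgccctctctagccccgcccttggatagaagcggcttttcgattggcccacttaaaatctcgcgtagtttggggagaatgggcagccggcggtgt
Cdc7, the first of 2 windows, chr5:106964072-106964321, plus strand: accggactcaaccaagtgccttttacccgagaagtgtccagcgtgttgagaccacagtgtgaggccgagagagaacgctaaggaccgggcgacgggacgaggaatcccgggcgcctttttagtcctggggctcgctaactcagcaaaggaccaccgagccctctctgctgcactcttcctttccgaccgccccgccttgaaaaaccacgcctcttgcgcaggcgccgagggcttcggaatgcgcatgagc

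Matches were found in windows of Mcm3, Mcm5, Mcm6, Mcm7, Orc1, Cdc6, Cdt1, Gins3, Pola1, Pold1, Rfc3, Lig1, E2f2 and Uhrf1. Mcm5 and Mcm6 each held a pair of overlapping matches in opposite orientation, because the motif ends in letters that can begin its own reverse complement. In Rfc3 the pair flanked the start, the first match beginning at position -10 and the second at position 1. A match here is a string of letters and not a measured binding site, and a window without one says only that these letters are not in it. The map of the motif positions gives all of them.

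**Figure D1:**
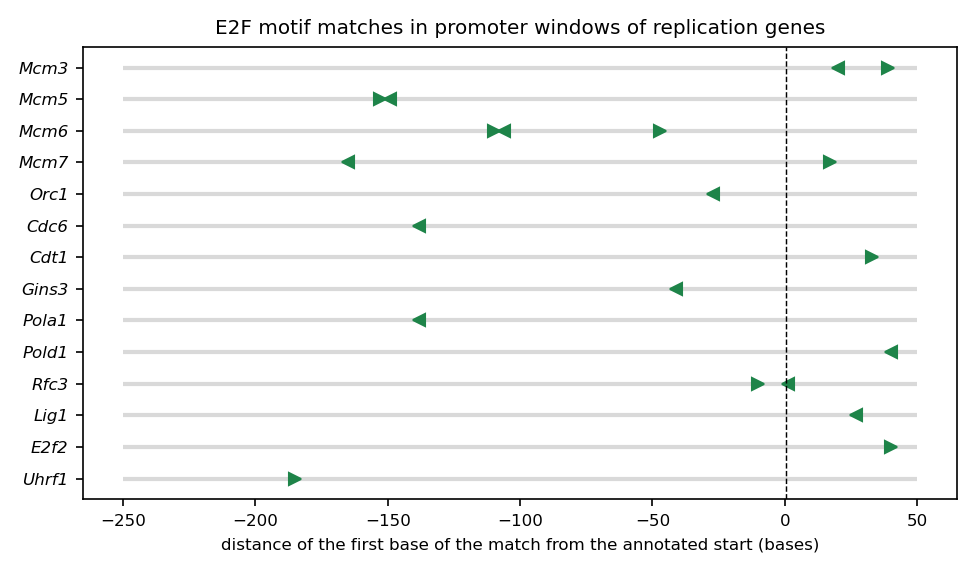
Position of each E2F motif match in the promoter windows of the 14 replication genes that had one; the horizontal axis is the distance in bases of the first base of the match from the annotated start, the grey line is the 300-base window, and arrowheads to the right and left are matches on the gene's strand and on the other strand. Matches lie on both sides of the start, from position -185 (Uhrf1) to position 40 (Pold1, E2f2).

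Before the replication genes, the arrays themselves were checked. Spots well above background made up 48.7% to 62.3% of each array, and the 75th percentile of signal ran from 249 to 516; hydroxyurea 3 was lowest in both. Cdkn1a, the p53 target that encodes the p21 inhibitor of cyclin-dependent kinases, was 3.02 ± 0.24 higher with hydroxyurea on the log2 scale (SE, limma adjusted p = 0.00027), and Ccng1, another p53 target, 3.20 ± 0.14 higher (limma adjusted p = 1.9e-05), and for both genes all hydroxyurea arrays lay above all saline arrays. All 12 embryo markers listed were well above background on all 8 arrays. So were 6 of 8 yolk sac, 4 of 5 trophoblast, 3 of 6 decidual and 1 of 4 leukocyte markers on the array. The trophoblast gene Tpbpa, the decidual marker Esr1 and the macrophage gene Lyz2 were so on 0 arrays. Some markers moved with the groups: Sox10, a neural crest gene, was lower with hydroxyurea by the fit (-0.78 ± 0.15, limma adjusted p = 0.017), and 9 of the 12 embryo markers had a difference below 0 (median -0.24). Of 6 trophoblast markers, Hand1, also expressed in the embryo's heart and lateral mesoderm, was lower (-1.42 ± 0.22, limma adjusted p = 0.0083) and Ascl2 higher (0.91 ± 0.20, limma adjusted p = 0.030). None of the 8 yolk sac markers passed, and all 8 had a difference below 0 (median -0.90). The part of these shifts in the replication and mitosis genes was not tested. A decidual prolactin gene, Prl8a2, reached a scaled log2 signal of 2.40 on hydroxyurea 2 and 6.03 on hydroxyurea 3. It lay between -7.51 and -2.03 on the other 6 arrays. The summed decidual markers were 8.87 on hydroxyurea 2, 68.7 on hydroxyurea 3 and 2.48 to 4.17 elsewhere. On hydroxyurea 2 and 3 these sums were mostly Prl8a2 itself, so they do not show a rise of the other decidual markers. The arrays sat on 2 slides with 2 arrays of each group on each, slide 1 holding replicates 1 and 2 and slide 2 the others.

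Most replication genes were slightly higher in the hydroxyurea embryos, but few differences passed the test. Values below are scaled log2 signals, the log2 processed signal minus that array's 75th percentile, so 0 is the signal of the probe at that percentile and an increase of 1 is a doubling. A difference is hydroxyurea minus saline over 4 arrays a group, given with its SE, and a gene was called when limma's p-value, after the Benjamini-Hochberg correction for 23121 tested features, was under 0.05. Of the 41 genes, Orc6 and Cdc7 were called higher (4.88%), against 2.78% of all features and 3.64% of named genes. Called lower were 0, against 3.40% of all features and 2.03% of named genes, and 39 did not pass. At an unadjusted limma p under 0.05, 15 of the 41 (36.6%) were higher, against 12.4% of all features and 15.6% of named genes. At the same threshold 0 were lower, against 12.4% of all features and 8.45% of named genes.

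The direction of the differences was more uniform than the calls. In 34 of 41 genes (82.9%) the difference was above 0, against 54.1% of all features and 61.5% of named genes. The median of the 41 differences was 0.28 and their range -0.19 to 0.87; the median was 0.04 over all features and 0.10 over the named genes, to which all 41 belong. Within slide 1 the median of the 41 was 0.33 and within slide 2 it was 0.31. All 4 hydroxyurea arrays lay above all 4 saline arrays for 9 genes (22.0%), against 7.85% of all features and 10.2% of named genes; these were Orc6, Cdc6, Cdc7, Prim1, Pold1, Pole, Rfc1, Rfc3 and Chaf1b. The reverse order occurred for 0 of the 41, against 7.63% of all features and 5.82% of named genes. In whole embryos, a change in the share of cells that are in S phase and a change in RNA per cell cannot be told apart.

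**Figure D2:**
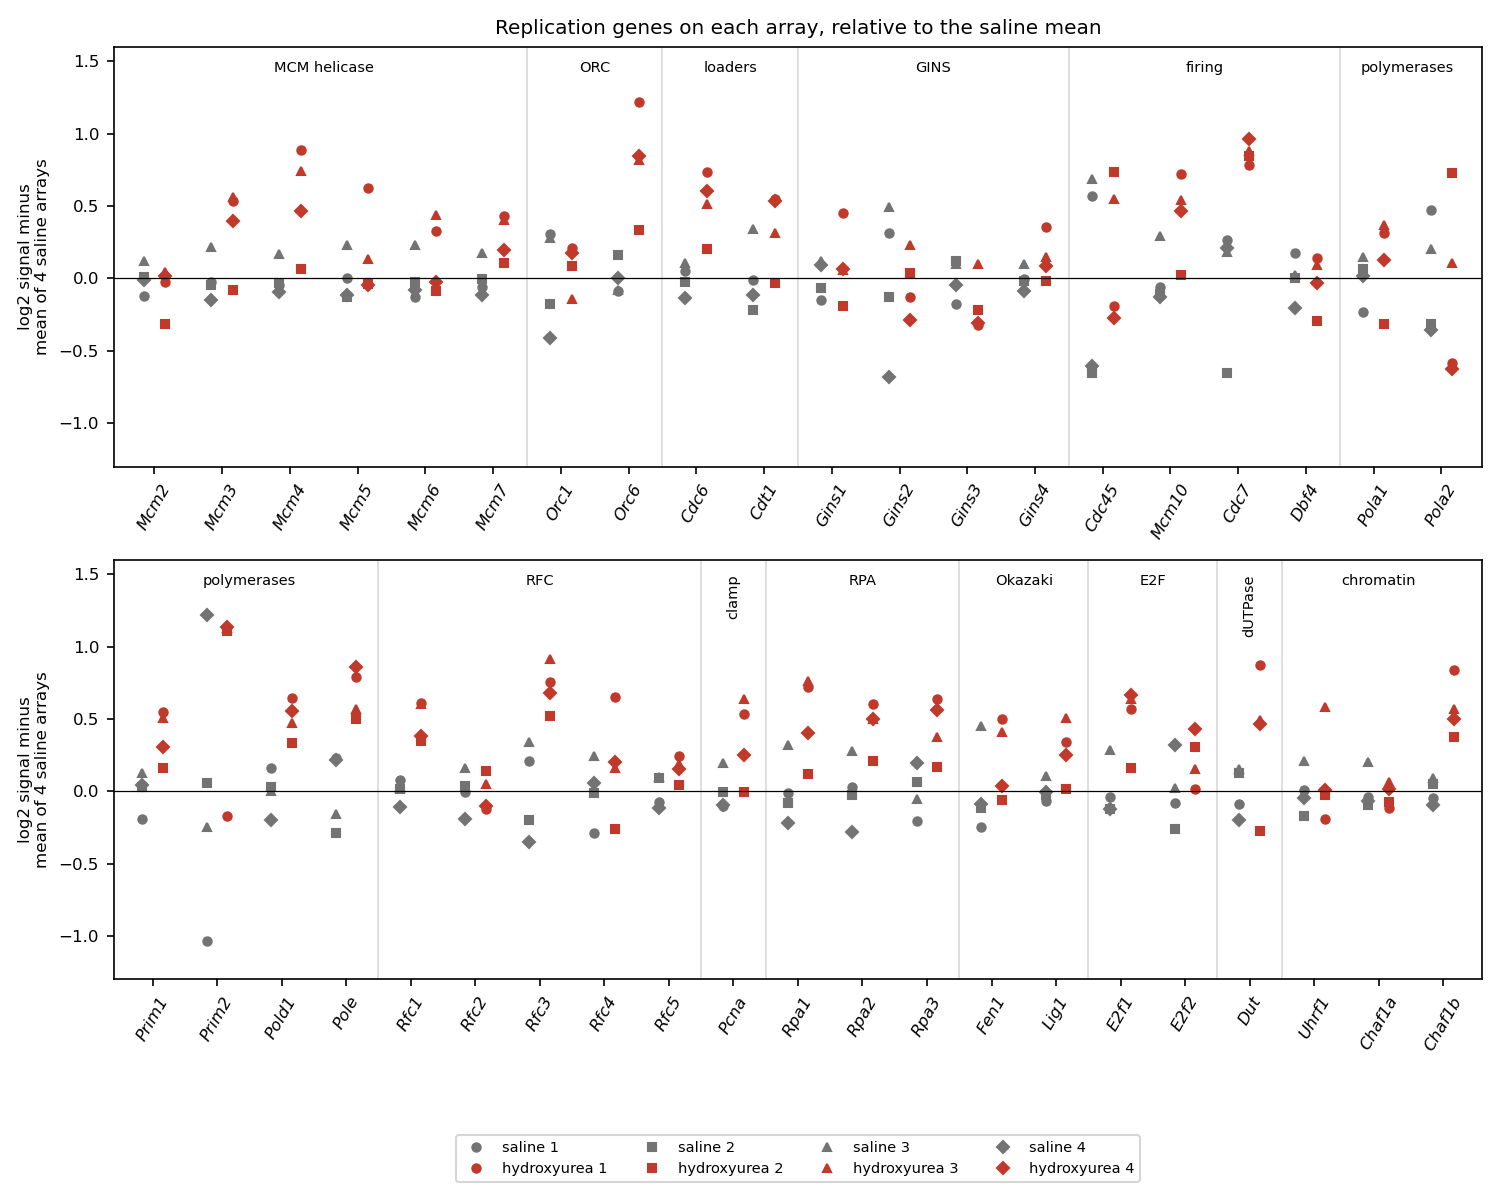
Each of the 41 replication genes on each array, as log2 signal minus the mean of the 4 saline arrays (vertical axis); grey symbols are saline arrays, red symbols hydroxyurea arrays, and the symbol shape is the replicate number. Red symbols stand above all grey ones for 9 genes, and hydroxyurea 2 (red squares) is the lowest red symbol for 29 of the 41 genes.

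By the median over these genes, hydroxyurea 2 was the lowest hydroxyurea array and hydroxyurea 4 the next. The median over the 41 genes of the signal minus the saline mean was 0.53 on hydroxyurea 1, 0.07 on hydroxyurea 2, 0.47 on hydroxyurea 3 and 0.25 on hydroxyurea 4. On saline 1 to 4 the same median was -0.04, -0.02, 0.17 and -0.09. The hydroxyurea 2 median thus lay below that of saline 3 and above the other saline arrays. Over all features too it was the lowest, with medians of 0.12, -0.06, 0.08 and 0.04 on hydroxyurea 1 to 4. Hydroxyurea 2 held the lowest of the 4 hydroxyurea values for 29 of 41 genes, and saline 3 the highest of the 4 saline values for 29 of 41. Genes above the highest saline array numbered 29 on hydroxyurea 1, 11 on hydroxyurea 2, 25 on hydroxyurea 3 and 23 on hydroxyurea 4. Hydroxyurea 2 also had the lowest summed embryo markers, 26.5 against 31.3 to 41.4 on the other arrays, and the raised Prl8a2 already given; the part of these in the replication genes was not tested beyond leaving arrays out.

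Leaving out hydroxyurea 2 raised the count of called replication genes from 2 to 15 (36.6%), when 8.53% of all features were called higher. The 15 were Cdc6, Cdc7, Chaf1b, Dut, E2f1, Mcm10, Mcm3, Mcm4, Orc6, Pold1, Pole, Rfc1, Rfc3, Rpa1 and Rpa3. Leaving out any other single array gave 0 called replication genes by limma (10 to 15 at an unadjusted p under 0.05). In these fits 0.92% to 1.77% of all features were called higher, and the median of the 41 stayed between 0.25 and 0.42. With both hydroxyurea 2 and hydroxyurea 3 left out, an alternative chosen after the data were seen, 6 were called higher (14.6%, against 7.38% of all features) and the median was 0.39. The number of calls therefore moved with the arrays used far more than the median did.

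The 6 subunits of the MCM ring, the replicative helicase, gave 0 calls and a median difference of 0.23. Mcm4 had the highest difference, 0.54 ± 0.19 (limma adjusted p = 0.13), with values of 6.79, 5.97, 6.65 and 6.37 on hydroxyurea 1 to 4 and 5.87, 5.88, 6.07 and 5.81 on saline 1 to 4. The groups overlapped only through hydroxyurea 2, which lay below saline 3. Mcm3 differed by 0.35 ± 0.18, Mcm7 by 0.28 ± 0.15, Mcm5 by 0.17 ± 0.19 and Mcm6 by 0.16 ± 0.17. Mcm2 was the one subunit with a difference below 0, -0.07 ± 0.14, with a 95% interval of -0.39 to 0.25. All 6 are parts of 1 ring, yet the Mcm2 and Mcm4 values lay on either side of the others; the difference between subunits was not tested. Over the 6 genes, the median above the saline mean was 0.48 and 0.42 on hydroxyurea 1 and 3 and -0.06 and 0.11 on hydroxyurea 2 and 4.

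Among the ORC subunits listed, Orc6 rose. Its values were 5.86, 4.97, 5.45 and 5.48 on hydroxyurea 1 to 4 and 4.55, 4.80, 4.55 and 4.64 on saline 1 to 4. Every hydroxyurea array was above every saline array, hydroxyurea 2 by the smallest margin, and the difference was 0.81 ± 0.19 (limma adjusted p = 0.043), which is 1.75-fold. The difference was 0.74 within slide 1 and 0.87 within slide 2. Orc1, the largest subunit and an ATPase, differed by 0.08 ± 0.20 (95% interval -0.36 to 0.52), and its arrays overlapped. Orc6 was called in 8 of the 21 alternatives tried, and its difference kept its sign in all of them.

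The helicase loaders Cdc6 and Cdt1 were higher without passing the test. Cdc6, an ATPase that joins ORC at origins, had values of 2.39, 1.85, 2.16 and 2.26 on hydroxyurea 1 to 4 and 1.70, 1.63, 1.76 and 1.52 on saline 1 to 4. The groups did not overlap, and the difference was 0.51 ± 0.16 (limma adjusted p = 0.086). A second Cdc6 probe gave a smaller difference of 0.28, with hydroxyurea 2 and 3 inside the saline range or close above it. Cdt1, which brings MCM to origins and is held in check by geminin, ranged from 5.29 to 5.87 on the hydroxyurea arrays and 5.10 to 5.66 on the saline arrays, with a difference of 0.34 ± 0.19 (limma adjusted p = 0.29).

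The 4 GINS subunits, which bridge the helicase and polymerase ε, had the lowest median difference of the complexes, 0.03. Gins3 had the lowest value of the 41 genes, -0.19 ± 0.15 (95% interval -0.53 to 0.16), and its promoter window carries the E2F match printed above. Gins1 differed by 0.10 ± 0.17, Gins2 by -0.04 ± 0.26 and Gins4 by 0.15 ± 0.14. None of the 4 passed the test (0 called by limma, and 0 at an unadjusted p under 0.05), and the intervals reach from -0.62 to 0.54 for the least precise of them, Gins2, so shifts of the size seen for Orc6 lie outside them.

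Of the factors that fire origins, Cdc7 rose on the probe with the stronger signal. Its values were -2.41, -2.35, -2.31 and -2.23 on hydroxyurea 1 to 4 and -2.93, -3.85, -3.01 and -2.98 on saline 1 to 4. The groups did not overlap; the hydroxyurea arrays lay close together, and saline 2 was well below the other saline arrays. The difference was 0.87 ± 0.21 (limma adjusted p = 0.046), or 1.83-fold. A second Cdc7 probe, dimmer but well above background on all 8 arrays, gave -0.06, with -3.31, -3.18, -3.55 and -3.72 on hydroxyurea 1 to 4 and -3.10, -3.95, -3.16 and -3.32 on saline 1 to 4. The probes thus disagreed, and the Cdc7 call was present in 4 of 21 alternatives.

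Dbf4, the activating subunit of the Cdc7 kinase, differed by -0.02 ± 0.16 (95% interval -0.37 to 0.33). Mcm10, which helps to activate the assembled helicase, was at 4.00 to 4.70 on the hydroxyurea arrays and 3.85 to 4.27 on the saline arrays, a difference of 0.44 ± 0.19 (limma adjusted p = 0.19). Only saline 3 reached into the hydroxyurea range. Cdc45, the partner of MCM and GINS in the active helicase, varied widely within both groups, -0.73 to 0.28 on the hydroxyurea arrays and -1.11 to 0.23 on the saline arrays, and its difference of 0.21 ± 0.38 was smaller than that spread.

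The 6 polymerase and primase genes had a median difference of 0.44, and 3 of them, Prim1, Pold1 and Pole, had groups that did not overlap. Pole, the catalytic subunit of the leading-strand polymerase ε, had values of 4.02, 3.72, 3.79 and 4.08 on hydroxyurea 1 to 4 and 3.46, 2.94, 3.07 and 3.44 on saline 1 to 4. Every hydroxyurea array was higher, and the difference of 0.68 ± 0.17 (limma adjusted p = 0.052) narrowly missed the threshold. Pold1, the catalytic subunit of polymerase δ, had values of 4.90, 4.59, 4.73 and 4.82 on hydroxyurea 1 to 4 and 4.42, 4.29, 4.26 and 4.06 on saline 1 to 4. Again hydroxyurea 2 was the lowest hydroxyurea array and still above saline 1, the highest saline array, with a difference of 0.50 ± 0.14 (limma adjusted p = 0.074). Prim1, the catalytic primase subunit, had values of 4.97, 4.59, 4.93 and 4.74 on hydroxyurea 1 to 4 and 4.24, 4.46, 4.55 and 4.47 on saline 1 to 4. Its margin between groups was the narrowest of the 3, and the difference was 0.38 ± 0.15 (limma adjusted p = 0.16).

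The other genes of the polymerase α and primase complex were less clear. Pola1, the catalytic subunit, differed by 0.13 ± 0.18 and Pola2, its regulatory subunit, by -0.09 ± 0.33 (95% interval -0.83 to 0.64). Prim2, the large primase subunit, had a difference of 0.80 ± 0.47 (limma adjusted p = 0.33), but its values were 1.11, 2.39, 2.41 and 2.42 on hydroxyurea 1 to 4 and 0.25, 1.34, 1.04 and 2.51 on saline 1 to 4. The groups overlapped widely, and the saline arrays alone ranged over more than 2 log2 units. A second, dim Pole probe, well above background on 4 arrays, gave 0.14. The polymerase genes had much the same median on each hydroxyurea array: it was 0.43, 0.42, 0.49 and 0.43 above the saline mean on hydroxyurea 1 to 4. The single genes were less alike, from -0.31 (Pola1) to 1.11 (Prim2) on hydroxyurea 2. Pola1, Prim1, Pold1 and Pole each had their lowest hydroxyurea value on that array, while Pola2 had its highest there.

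**Figure D3:**
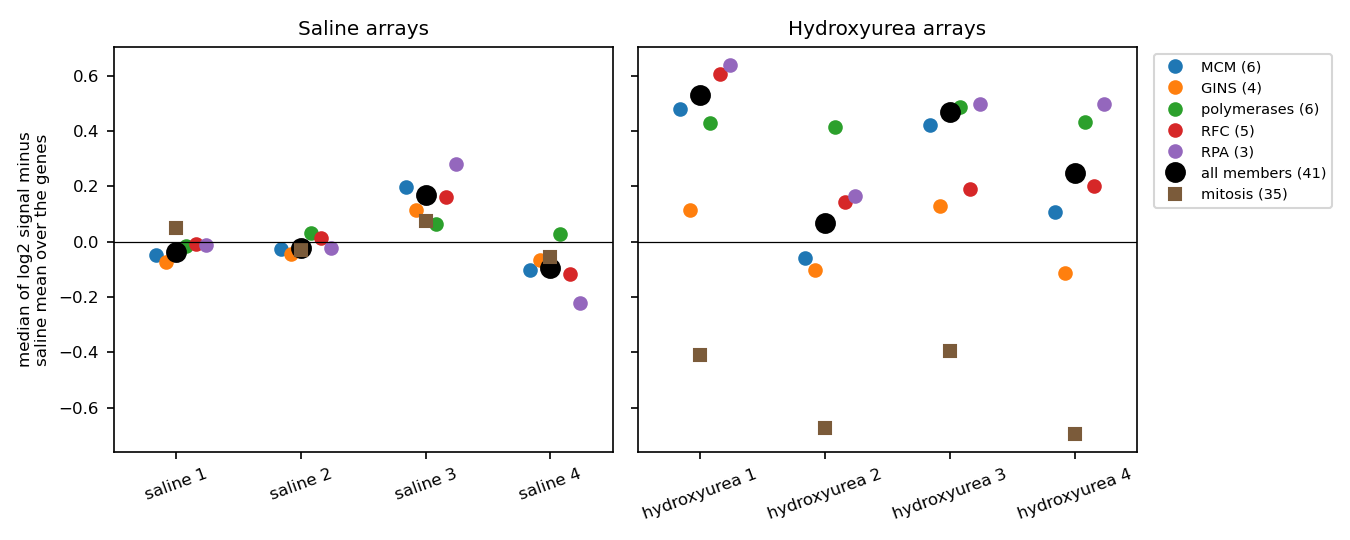
Median over the genes of each complex of the log2 signal minus the saline mean (vertical axis), for each saline array (left) and hydroxyurea array (right); colours mark complexes, with the number of genes in brackets, black the 41 genes together and brown squares 35 genes of mitosis. The median of the polymerase genes is 0.42 to 0.49 on all 4 hydroxyurea arrays and that of the MCM genes -0.06 to 0.48. The median of the mitosis genes is below -0.39 on all 4. Single genes spread around these medians.

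RFC, the 5-subunit loader of the sliding clamp, was uneven. Rfc3, one of its small subunits, had values of 2.92, 2.68, 3.08 and 2.85 on hydroxyurea 1 to 4 and 2.38, 1.96, 2.50 and 1.81 on saline 1 to 4. All hydroxyurea arrays were above all saline arrays, with a difference of 0.72 ± 0.19 (limma adjusted p = 0.058). Rfc1, the large subunit specific to this loader, had values of 4.76, 4.50, 4.76 and 4.54 on hydroxyurea 1 to 4 and 4.23, 4.17, 4.18 and 4.05 on saline 1 to 4. Here too the groups were separate, and the difference was 0.48 ± 0.14 (limma adjusted p = 0.069). Rfc2 differed by -0.01 ± 0.14 (95% interval -0.33 to 0.31), Rfc4 by 0.19 ± 0.21 and Rfc5 by 0.16 ± 0.13, all with overlapping arrays. A second Rfc4 probe gave 0.31. Pcna, the clamp itself, ranged from 6.82 to 7.47 on the hydroxyurea arrays and 6.73 to 7.03 on the saline arrays, and its difference was 0.35 ± 0.18 (limma adjusted p = 0.25).

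The 3 RPA subunits, which bind single-stranded DNA as one trimer, differed by like amounts. Rpa1, the large subunit with most of the DNA-binding domains, had values of 6.28, 5.68, 6.32 and 5.96 on hydroxyurea 1 to 4 and 5.54, 5.47, 5.88 and 5.34 on saline 1 to 4 and a difference of 0.50 ± 0.19 (limma adjusted p = 0.15). Hydroxyurea 2 was the only hydroxyurea array below saline 3. Rpa2, the subunit phosphorylated in replication stress, differed by 0.45 ± 0.17 (limma adjusted p = 0.14), and Rpa3 by 0.43 ± 0.16 (limma adjusted p = 0.14). None of the 3 passed the threshold, and all 3 had an unadjusted limma p under 0.05.

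On the lagging strand, Fen1, the flap endonuclease that trims Okazaki fragments, differed by 0.22 ± 0.20 and Lig1, the ligase that joins them, by 0.28 ± 0.15; neither passed (limma adjusted p = 0.54 and 0.28). Dut, the dUTPase that keeps uracil out of DNA, ranged from 4.20 to 5.35 on the hydroxyurea arrays and 4.28 to 4.63 on the saline arrays. Hydroxyurea 2 was below every saline array and the other hydroxyurea arrays above all of them, so the difference of 0.39 ± 0.24 (limma adjusted p = 0.34) moved to 0.61 without that array. Of the activating E2F genes, E2f1 differed by 0.51 ± 0.17 (limma adjusted p = 0.11) and E2f2 by 0.23 ± 0.17 (limma adjusted p = 0.44).

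Chaf1b and Chaf1a encode subunits of CAF-1, the chaperone that deposits histones behind the fork, and Uhrf1 a protein that guides maintenance DNA methylation to hemimethylated sites. Chaf1b had values of 6.18, 5.72, 5.91 and 5.85 on hydroxyurea 1 to 4 and 5.30, 5.39, 5.43 and 5.25 on saline 1 to 4. Its groups did not overlap, the difference was 0.57 ± 0.15 (limma adjusted p = 0.053), and a second probe gave 0.55. Chaf1a, in contrast, differed by -0.03 ± 0.14 (95% interval -0.34 to 0.28). Uhrf1 differed by 0.09 ± 0.19 on its stronger probe and by -0.57 on a dimmer one, neither of which passed. Members of one complex therefore had unlike values in CAF-1, as in RFC and MCM; no difference between members was tested.

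**Figure D4:**
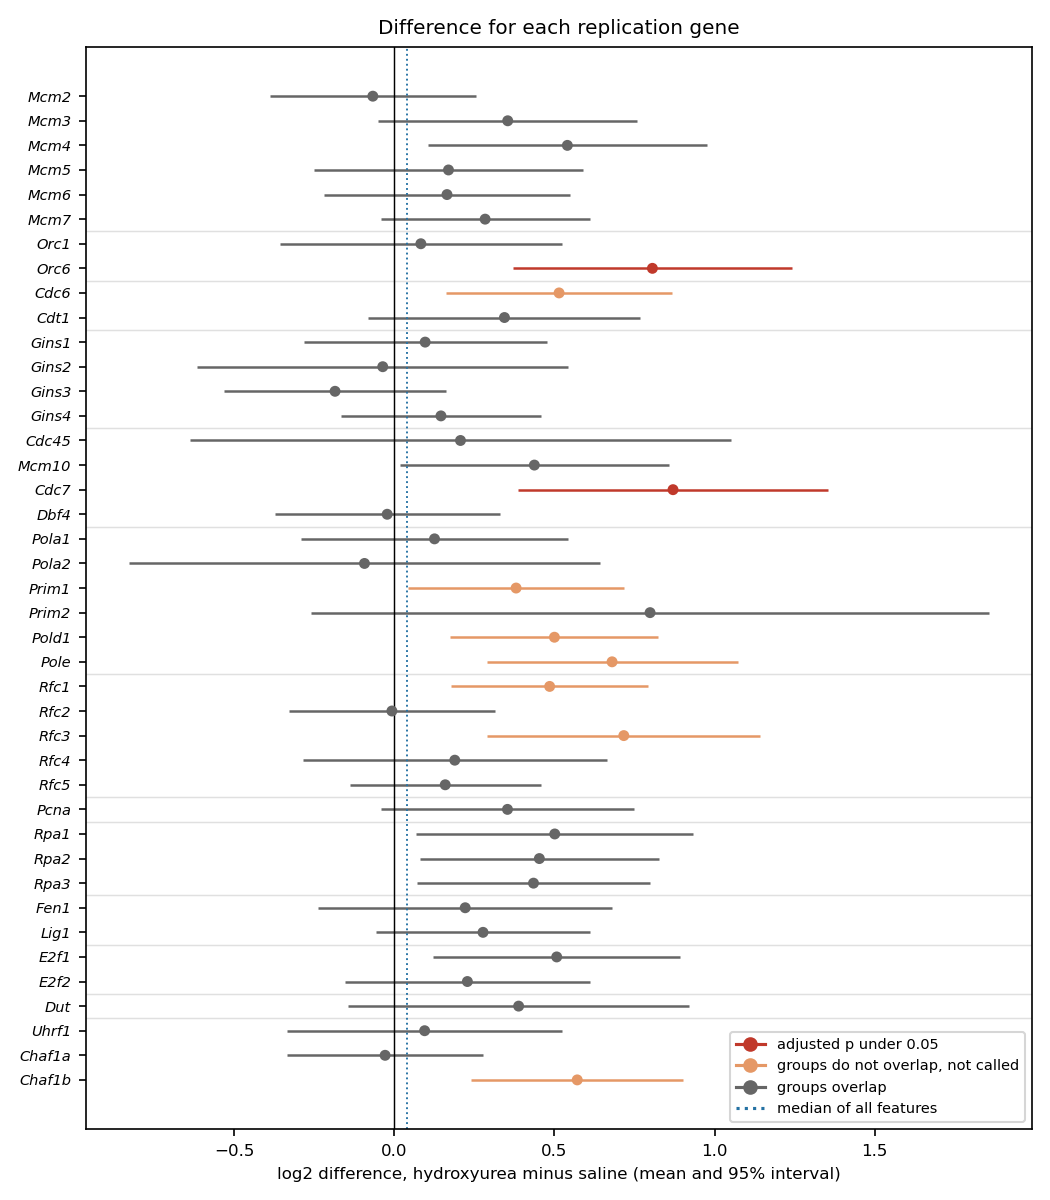
Difference between hydroxyurea and saline for each of the 41 genes on the log2 scale (horizontal axis; point, mean of 4 arrays against 4; line, 95% interval of the limma fit). Red marks Orc6 and Cdc7, orange the other 7 genes whose groups do not overlap, and the dotted line the median of all features, 0.04.

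Having an E2F match did not go with a higher median difference. The 14 with a match had a median difference of 0.25 (range -0.19 to 0.72), with 0 called and 3 with non-overlapping groups (Cdc6, Pold1 and Rfc3). The 20 with a window but no match had a median of 0.38 (range -0.09 to 0.87), with 2 called and 5 with non-overlapping groups. The 7 genes without a window had a median of 0.15, with 0 called and 1 with non-overlapping groups (Pole). Over all features, 2.78% were called higher and 7.85% had all hydroxyurea arrays above all saline arrays. The sets differ in size and are small, so their counts are not directly comparable. These splits are descriptions and were not tested.

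A further 57 genes of replication, not among the 41, were read in the same way. Limma called 4 of them higher (7.02%, against 2.78% of all features and 3.64% of named genes). It called 0 lower, against 3.40% of all features and 2.03% of named genes. A difference above 0 was found in 45 (78.9%, against 54.1% of all features and 61.5% of named genes), and the median was 0.23. Rb1, the retinoblastoma protein that restrains E2F, had values of 2.44, 1.93, 2.20 and 2.49 on hydroxyurea 1 to 4 and 0.95, 0.98, 0.85 and 1.19 on saline 1 to 4. The groups were far apart, with a difference of 1.27 ± 0.17 (limma adjusted p = 0.0039). Dna2, a nuclease and helicase that processes flaps and stalled forks, rose by 1.13 ± 0.18 (limma adjusted p = 0.0089); a second Dna2 probe gave 0.47 (limma adjusted p = 0.50).

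E2f7, a repressor E2F, rose by 0.98 ± 0.19 (limma adjusted p = 0.018), with values of 4.18, 3.39, 3.90 and 3.81 on hydroxyurea 1 to 4 and 2.68, 2.76, 2.92 and 3.00 on saline 1 to 4. A second E2f7 probe, well above background on all 8 arrays, gave -0.62 (limma adjusted p = 0.063), so the direction depended on the probe. Pole2, the second subunit of polymerase ε, rose by 0.64 ± 0.15 (limma adjusted p = 0.039), with values of 2.29, 2.05, 2.29 and 2.29 on hydroxyurea 1 to 4 and 1.77, 1.55, 1.70 and 1.35 on saline 1 to 4. Its groups did not overlap, as for Pole, but limma no longer called it with slide as a block or on leaving out any array other than hydroxyurea 2, and it was called in 9 of the 21 alternatives. The call of E2f7 was present in 13 of them, that of Dna2 in 18 and that of Rb1 in 19. The order was the reverse for E2f4, an E2F linked to repression, whose hydroxyurea arrays all lay below the saline arrays (difference -0.52 ± 0.14, limma adjusted p = 0.066). Other subunits of polymerases δ and ε did not pass: Pold2, Pold3, Pold4, Pole3 and Pole4 differed by 0.11, -0.04, 0.18, -0.12 and 0.02. Nor did Orc2, Orc3, Orc4 and Orc5, which differed by 0.16, 0.29, 0.37 and 0.04. The authors' deposited table of 1346 probes holds 0 of the 47 probes of the 41 genes, but it holds Rb1, Dna2, E2f7 and Pole2.

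Genes of mitosis that passed the test were lower with hydroxyurea. Of 35 listed, 13 were called lower (37.1%, against 3.40% of all features), 0 higher and 22 did not pass; the median difference was -0.61, and in 20 (57.1%, against 7.63% of all features) all hydroxyurea arrays were below all saline arrays. Ube2c, which passes ubiquitin to targets of the anaphase-promoting complex in mitosis, fell by 1.32 on the log2 scale (SE 0.15, limma adjusted p = 0.002), Hmmr differed by -1.22 ± 0.13 (limma adjusted p = 0.0011) and the spindle factor Tpx2 by -1.17 ± 0.15 (limma adjusted p = 0.0029). The others called lower were Cdc20, Cdc25b, Aurka, Cenpe, Cenpf, Kif11, Kif23, Nusap1, Prc1 and Pttg1, with differences from -1.19 (Prc1) to -0.62 (Cdc25b); a second Pttg1 probe gave -0.04. The count of 13 fell to 5 with median centring, with no filter on dim probes and without saline 3, to 6 without hydroxyurea 4 or saline 4 and to 7 without saline 1 or saline 2; it was 0 on each slide alone, while the mitosis median lay between -0.66 and -0.49 over all alternatives. Here hydroxyurea 2 was close to hydroxyurea 4: the mitosis median was -0.41, -0.68, -0.40 and -0.69 on hydroxyurea 1 to 4. Of 14 genes of the replication checkpoint, the kinase gene Atm rose by 0.66 ± 0.14 (limma adjusted p = 0.027; a second probe gave 0.53, adjusted p = 0.31), Wee1, the kinase that holds back Cdk1, fell by 0.70 (SE 0.14, limma adjusted p = 0.023), and 12 did not pass. The Atm call was present in 10 of the 21 alternatives and the Wee1 call in 11. No list was tested against another.

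**Figure D5:**
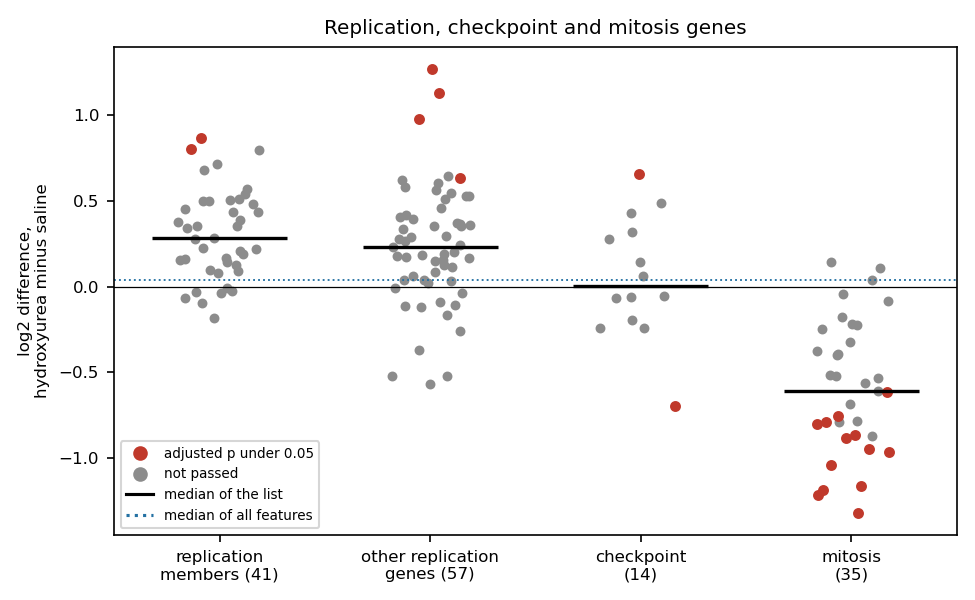
Log2 difference between hydroxyurea and saline (vertical axis) for the 41 replication genes, 57 other replication genes, 14 checkpoint genes and 35 genes of mitosis; each point is a gene, red where limma's adjusted p was under 0.05, and the bar is the median of the list. The replication medians are 0.28 and 0.23, the mitosis median is -0.61, and the dotted line is the median of all features, 0.04.

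The scaling of the arrays set where 0 lies. With median centring in place of the 75th percentile, the median over all features moved from 0.04 to 0.16, 40 of the 41 genes were above 0, the median of the 41 was 0.40 and limma called 0 of them (15 at an unadjusted p under 0.05). Relative to the median of all features, the median of the 41 was 0.24 higher under both scalings. This equality is fixed in advance, because each scaling subtracts a single constant from an array. Slide or array row as a block and a variance trend also leave the differences as they are. Over the 21 alternatives, these included, the margin was 0.17 to 0.37. Orc6 and Cdc7 lost their calls also with slide as a block (limma, 0 of 41 called, 14 at an unadjusted p under 0.05). Each slide alone, with 2 arrays a group, gave 0 calls among the 41 (limma; 1 on slide 1 and 6 on slide 2 at an unadjusted p under 0.05).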

How the data were processed

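RNA of 4 hydroxyurea and 4 saline samples was hybridised to 1-colour Cy3 arrays. The deposited scanner files hold intensity values which, per the file headers and the submitters' processing notes, come from Agilent Feature Extraction 11.5.1.1; the processed signal is background-subtracted and not scaled between arrays. The authors' deposited table holds log2 values; set against the scanner files, they equal the scaled log2 signal minus each probe's median over the 8 arrays (correlation of at least 0.99999, column medians -0.51 to 0.41), and how its probes were selected is not given in the sources used here. It was used only to see which genes named here it holds.

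Control spots and 151 to 315 outlier spots per array were left out; 0 spots were saturated. Spots of a probe were averaged on the log2 scale, each array's 75th percentile was subtracted, and probes well above background on at least 4 of 8 arrays and with a value on all 8 were kept, 30677 of 55681. The probe with the highest mean stood for its gene. RefSeq accessions gave symbols through a table of assembly GRCm38.p6: 26582 probes took a symbol, and 29099 stayed unnamed. Array-to-array correlations of 0.960 to 0.991 showed no duplicated array. Groups came from the labels, replicate numbers only name the arrays, and 4 arrays per group limit the precision.

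The group difference of each feature was estimated by limma 3.58.1 (lmFit, eBayes; R 4.3.3), two-sided, with Benjamini-Hochberg adjustment over 23121 features; the script was tested on simulated data. The 41 genes, the other lists and the rule for naming genes were chosen with earlier results of these data known. By that rule every one of the 41 is named; values on all arrays are given for those called, those whose groups do not overlap and those whose probes disagree with 1 called; Mcm4, Prim2 and Rpa1 were added after their values were seen. Of the other lists, cell type markers included, called genes are named, with Cdkn1a and Ccng1 as a check. E2f4, the other subunits of ORC and of polymerases δ and ε, and the cell type markers named without a call were added after their values were seen. Summed markers are sums of the scaled level on the linear scale. The scanner files used have no mean signal, so the normexp alternative (offset 50) took the median signal and median background. Further alternatives were quantile normalization, median centring, 2 other filters, slide or array row as a block, each slide alone, the mean of probes, every probe tested, a variance trend and leaving out each array.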

Additional observations from a re-analysis of the deposited data

Results flagged for a closer look

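A few arrays lay far from the other 3 of their group, by the gap to the nearest array relative to the group's range. Among the 41 replication genes this held for 3 of 82 gene and group pairs (3.66%), and chance alone marks about 1 in 20. For Mcm10, saline 3 was highest at 4.27, with the nearest saline array at 3.92. For Cdc7, saline 2 was lowest at -3.85, with the nearest at -3.01; without saline 2, limma called 0 of the 41 genes. For Prim2, hydroxyurea 1 was lowest at 1.11, with the nearest at 2.39. Outside the 41 genes, Pole2 had hydroxyurea 2 lowest at 2.05, with the nearest at 2.29, and Ube2c had saline 2 highest at 5.41, with the nearest at 5.14.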

How the results depend on the processing

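Over 21 alternatives the median of the 41 replication genes was 0.25 to 0.42, and 29 of the 34 genes above 0 stayed above 0 in each; of the 39 genes not called, 13 were called in at least 1 alternative and 11 changed sign in at least 1. Counts of calls moved more. In the main fit limma called 2 of the 41 genes and 4 of the 57 other replication genes, with 2.78% of all features called higher. The share of all features called higher follows in brackets for each alternative. Limma called 5 of the 41 with normexp (2.79%), and 6 and 10 with quantile normalization (4.11%). It called 5 and 7 with the filter on all 8 arrays (4.15%), and 6 and 7 with a variance trend (3.53%). Array row as a block gave 1 of the 41 (2.46%), and the mean of probes 1 and 2 (2.72%). Limma called 0 of the 41 with median centring (15 at an unadjusted p under 0.05) and with slide as a block (14). Of all features, 2.04% and 1.95% were called higher in these 2 fits. With no filter it called 615 features against 1429, with 0 of the 41 (13 at an unadjusted p under 0.05) and 2 of the 57. Slide 1 alone gave 59 features and slide 2 alone 3, each with 0 of the 41 (1 and 6 at an unadjusted p under 0.05) and 0 of the 57. Leaving out 1 array gave 524 to 3739 features, 0 to 15 of the 41 and 2 to 15 of the 57, the highest counts being without hydroxyurea 2. The share of all features called higher was 0.92% to 8.53% in these fits, also highest without hydroxyurea 2. Leaving out hydroxyurea 2 and 3 together, chosen after the data were seen, gave 3787 features, 6 of the 41 and 15 of the 57. Of all features, 7.38% were then called higher. No paired analysis was possible because the labels give no replicate numbers. All 41 genes were well above background on all 8 arrays, so detection did not limit which of them were tested. The causes of these shifts were not tested.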

Other observations

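Promoters of the mitosis genes differed in motif content from those of the replication genes. The letters TTTGAA, the core of the CHR element, occurred on either strand in windows of 17 of 27 mitosis genes (63%), 7 of 34 of the replication genes described here (20.6%) and 5466 of 27025 genes (20.2%). The E2F motif was in 1 of the 27 mitosis genes (3.7%) and in 18 of 46 other replication genes (39.1%). These are counts of letters over RefSeq windows of 300 bases and were not tested.

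Sums of markers of tissue outside the embryo proper overlapped between the groups, although Hand1 and Ascl2, given above, did not. For the decidual marker Pgr, all 4 hydroxyurea arrays were also above all saline arrays (1.35 ± 0.35, limma adjusted p = 0.054). Pgr was well above background on only 4 of the 8 arrays. The other decidual markers measured overlapped between the groups, with differences of 3.88 (Prl8a2), 0.20 (Dcn), 0.08 (Wnt4) and -0.89 (Hoxa10). Summed yolk sac markers were 16.1 to 87.7 on the hydroxyurea arrays and 19.1 to 255 on the saline arrays, highest on saline 2. Trophoblast sums were 25.4, 22.0, 9.9 and 36.6 on hydroxyurea 1 to 4. On saline 1 to 4 they were 8.8, 5.2, 8.6 and 34.8, so only saline 4 reached into the hydroxyurea range. The highest of these sums, on hydroxyurea 1, hydroxyurea 4 and saline 4, were mostly a single gene, Gcm1. Its groups overlapped and it did not pass (1.31 ± 0.82, limma adjusted p = 0.36). Decidual sums, and likewise leukocyte sums, were above every saline array on hydroxyurea 2, 3 and 4 and below them on hydroxyurea 1. The decidual sums on hydroxyurea 2 and 3 were mostly Prl8a2. Leukocyte sums were low, 0.13 to 0.31 over the 8 arrays, with 1 of 4 markers well above background on all 8. The sums include markers that were well above background on 0 arrays, such as Esr1 and Lyz2. Differences in these sums were not tested. The trophoblast hormone gene Prl3d1 was at 2.40 on hydroxyurea 2 and 1.43 on hydroxyurea 3, the arrays also high in Prl8a2, and below -2.38 on all others.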
